A study of Mus musculus with 6 samples.

Results

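Genes of fatty acid and sterol metabolism were followed in skin keratinocytes that had been sorted by fluorescence from K15-EGFP mice. In these transgenic mice a keratin 15 promoter drives enhanced green fluorescent protein (EGFP), and the promoter is known for its activity in the hair follicle bulge, where follicle stem cells reside. Both gates took α6 integrin positive cells, a property of basal keratinocytes, and the groups were EGFP-high (3 arrays) and EGFP-negative (3 arrays), with 1 array per sample. The labels name no strain, age or sex, and no animal or sort behind a replicate. The p-values therefore measure only how these samples scatter, which may be technical. The genes were a list of 42 named enzymes, regulators and carriers of lipid metabolism, found on the array by gene symbol. The platform annotation paired 37 of the 42 with a probe set of that symbol alone, through 54 of 12422 probe sets and 37 of 8251 named genes. Srebf2, Acaca, Fads2, Soat1 and Acsl1 had no such probe set and are not analysed here.

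Cells build cholesterol from acetyl-CoA through the mevalonate pathway, in which Hmgcs1 acts early, Sqle and Lss form the sterol ring system, and Cyp51, Nsdhl, Sc5d and Dhcr7 trim it to cholesterol. The transcription factors SREBP-1 and SREBP-2, encoded by Srebf1 and Srebf2, switch on these enzymes and those of fatty acid synthesis when membrane sterol is low, and Insig1 holds them inactive when it is high. Acly, Acaca and Fasn make saturated fatty acids, the Elovl enzymes lengthen them, and the Scd and Fads enzymes introduce double bonds. In skin these lipids feed the barrier of the epidermis and the sebum of the sebaceous gland, and mice that lack Scd1 lose sebaceous lipid and hair.

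Promoter sequence bears on the sterol enzymes because SREBP and its partner NF-Y act at such sites. The RefSeq promoter table (GRCm38.p6) held entries for 31 of the 42 genes and for 9 of the 12 sterol enzymes. The 250 bases before each start were searched on both strands for CCAAT, the NF-Y box (ATTGG on the other strand), for GGGCGG, the Sp1 GC box, and for TCACNCCAC, a core of the sterol regulatory element bound by SREBP. A CCAAT box was found in 9 of 9 sterol enzyme genes (9 of 11 promoters, 81.8%), where 33.8% of all promoters and 34.8% of the promoters of genes tested here held one. The sterol regulatory core was found in 1 of the 9 genes, Hmgcs1, and in 1.05% of all promoters. The GC box was in 10 of the 11 promoters, where 32.7% of all promoters and 57.4% of those of tested genes held it. Hmgcs1 is shown because it had the largest difference among the sterol enzymes, and Elovl5 because it rose. Idi1 and Nsdhl are shown because their brightest probe sets read highest on the number 1 array in both groups. Neither passed a test of the number. Plpp1 and Scd1 had no entry. The sequences run 5′ to 3′ and end at the base before the start. Capitals mark CCAAT or ATTGG and, in Hmgcs1, the sterol regulatory core. No match to the core says only that these letters are not in this window.
Hmgcs1, chr13:119690101-119690350, plus strand: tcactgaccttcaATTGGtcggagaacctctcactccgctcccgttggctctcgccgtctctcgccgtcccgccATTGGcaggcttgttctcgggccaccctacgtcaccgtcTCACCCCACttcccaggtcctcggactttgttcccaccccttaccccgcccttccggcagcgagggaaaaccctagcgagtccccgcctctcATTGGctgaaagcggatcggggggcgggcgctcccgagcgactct
Idi1, chr13:8885356-8885605, plus strand: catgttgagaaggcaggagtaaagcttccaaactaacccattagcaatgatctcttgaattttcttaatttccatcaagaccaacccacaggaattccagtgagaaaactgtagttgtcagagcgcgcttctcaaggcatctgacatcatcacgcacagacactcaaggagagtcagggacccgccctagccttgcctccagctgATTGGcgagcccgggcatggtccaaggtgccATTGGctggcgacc
Nsdhl, chrX:72918271-72918520, plus strand: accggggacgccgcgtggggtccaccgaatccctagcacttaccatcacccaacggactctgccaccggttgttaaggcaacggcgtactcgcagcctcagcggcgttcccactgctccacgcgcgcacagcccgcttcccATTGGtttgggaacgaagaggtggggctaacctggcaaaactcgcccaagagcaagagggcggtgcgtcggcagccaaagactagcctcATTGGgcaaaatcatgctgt
Elovl5, chr9:77917115-77917364, plus strand: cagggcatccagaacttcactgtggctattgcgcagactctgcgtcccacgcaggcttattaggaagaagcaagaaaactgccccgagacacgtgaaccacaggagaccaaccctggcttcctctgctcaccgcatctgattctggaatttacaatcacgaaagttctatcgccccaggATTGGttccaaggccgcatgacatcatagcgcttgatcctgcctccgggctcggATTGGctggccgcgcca

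Each deposited value is an intensity on a linear scale, and array medians lay between 69.75 and 76.2. Control probe sets for bacterial and yeast genes had 95th percentiles of 25.5 to 42.25, which is taken as the control level. The ratio of the 3′ to the 5′ control probe set of actin, a sign of RNA quality, was 1.26 to 2.03 and was highest on number 2 in each group, as was that of Gapdh. On component 1 of a principal component analysis EGFP-high replicate 1 lay closest to EGFP-negative, with a score of 10.1 against 29.5 and 24.3 for the other EGFP-high arrays and -29.1 to -16.0 for EGFP-negative. The bulge list summed to 14679 to 16541 in EGFP-high and 1712 to 2189.9 in EGFP-negative, although Krt15 itself lay at the control level on all 6 arrays. Krt14 did so too, as did Krt5 except at 48.9 on EGFP-high replicate 2. These 3 keratins therefore give no check of the sort.

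Most lipid genes did not pass the threshold between the gates, and 2 rose: Plpp1, a lipid phosphate phosphatase, by about 10.4-fold and Elovl5, a fatty acid elongase, by 2.95-fold. A desaturase, Scd1, fell on 1 of its probe sets. Of the 37 genes on the array 31 were bright enough to be tested, each through its brightest probe set. By limma (Benjamini-Hochberg adjusted p under 0.05 over 7453 probe sets) 2 of 31 were higher, where 3.06% of 5628 tested genes were higher, and 0 were lower, where 2.27% were lower. At an unadjusted p under 0.05, 2 were higher and 5 lower (Hmgcs1, Srebf1, Scd1, Apoc1 and Cpt1a), where 8.71% of all tested genes were higher and 9.06% lower. With the replicate number as a block 2 were higher and 2 lower, the latter Hmgcs1 and Scd1, beside 5.29% higher and 5.33% lower among all tested genes. The groups did not overlap for 9 of 31 genes, against 23.4% of all tested genes. In all 3 same-number pairs 7 of 31 were higher (22.4% of all tested genes) and 11 lower (22.7%). The median log2 difference of the 31 genes was -0.10, beside -0.0017 for all tested genes. The sign of that median turned without EGFP-high replicate 2 (0.092) or without EGFP-negative replicate 1 (0.012). A log2 difference here is EGFP-high minus EGFP-negative of log2(value + 19.3), which understates changes near the control level. In bulk samples, fewer cells of a type and less RNA per cell cannot be told apart.

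**Figure D1:**
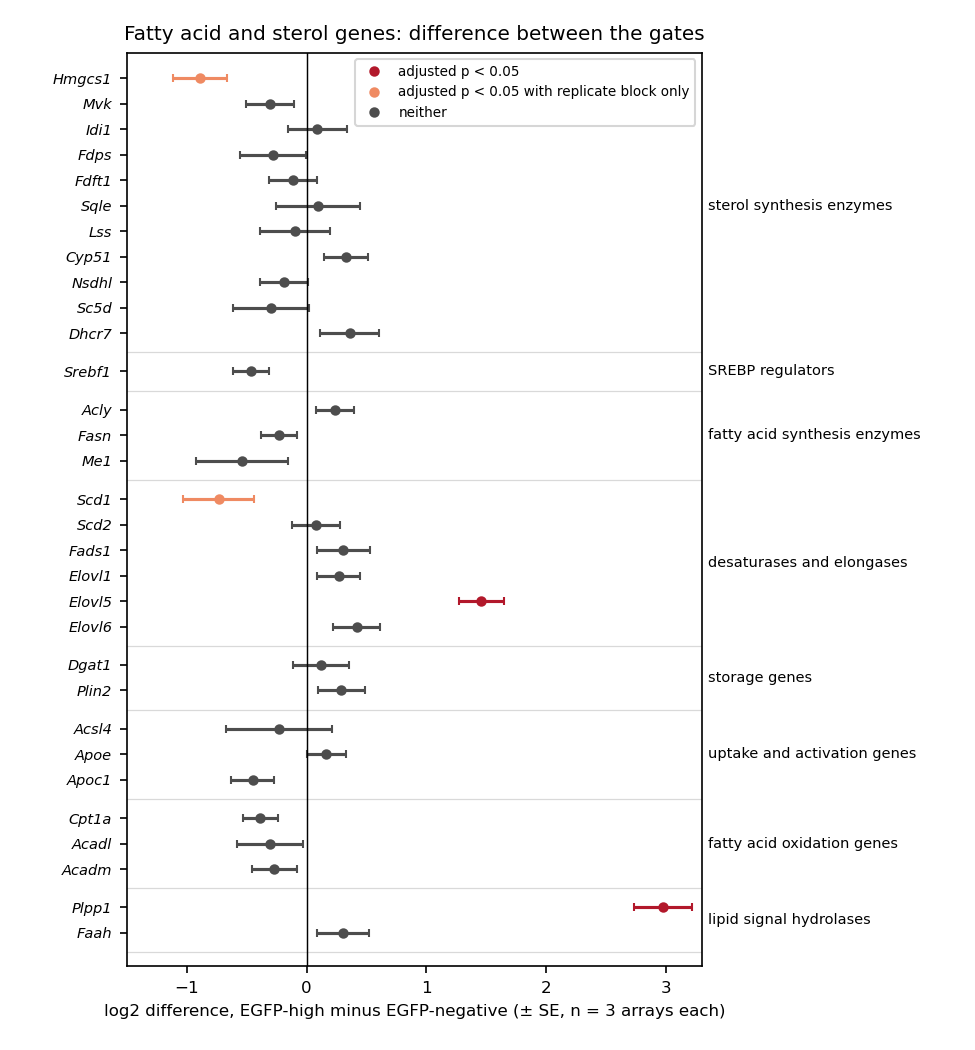
Log2 difference between EGFP-high and EGFP-negative arrays for the 31 tested genes, by role; points are the fitted difference, bars its SE (n = 3 arrays each) and colour the limma call. Plpp1 at 2.98 and Elovl5 at 1.46 stand to the right, and Hmgcs1 at -0.89 and Scd1 at -0.73 missed the threshold in this fit and passed it with the replicate block.

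Plpp1, which dephosphorylates lysophosphatidic acid and related lipid signals at the cell surface, read 411.9, 511.3 and 572.4 on EGFP-high arrays 1, 2 and 3. On EGFP-negative arrays 1, 2 and 3 it read 28.7, 45.9 and 69.6. Every EGFP-high array was far above every EGFP-negative array, and EGFP-negative replicate 1 was under the control level of that array. The means were 499 ± 81.0 against 48.1 ± 20.5 (SD, n = 3 each), a log2 difference of 2.98 (SE 0.24, limma adjusted p = 0.00026), higher in 3 of 3 pairs. Because EGFP-negative values were low, the size moved from 2.20 with an offset 4 times larger to 3.45 with values under 20 set to 20. The call held without any 1 array, with an adjusted p of 0.00326 or less. The probe set carries the suffix s, which the manufacturer gives to sets that can share signal with related transcripts. The other Plpp1 probe set lay at the control level on all 6 arrays at 6.1 to 20.6 and did not follow this rise. Faah, which breaks down the lipid messenger anandamide, read 61.4, 74.3 and 51.9 in EGFP-high and 39.2, 54.3 and 46.7 in EGFP-negative. Its groups overlapped (log2 0.31, SE 0.22, adjusted p = 0.552).

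Elovl5 lengthens polyunsaturated fatty acids. It read 458.7, 539.3 and 657.3 on EGFP-high arrays 1, 2 and 3 and 205, 199 and 157.9 on EGFP-negative arrays 1, 2 and 3. The lowest EGFP-high array was more than double the highest EGFP-negative array. The means were 552 ± 99.9 against 187 ± 25.6 (SD, n = 3 each), a log2 difference of 1.46 (SE 0.18, limma adjusted p = 0.00226). The call held without any 1 array, with log2 values of 1.33 to 1.58 and adjusted p up to 0.0158. The other elongases were less different. Elovl6, which extends saturated chains, read 138, 149.7 and 126.4 against 108.9, 115.8 and 74.6, groups that did not overlap (log2 0.42, SE 0.19, adjusted p = 0.319). Its second tested probe set overlapped between groups (log2 0.24, adjusted p = 0.677). Elovl1, an elongase of very long saturated chains, read 210.5, 206.6 and 195.2 against 155.3, 209.1 and 140.2, with overlap (log2 0.27, SE 0.18, adjusted p = 0.519). Fads1, a desaturase of the polyunsaturated series that Elovl5 serves, read 87, 159.9 and 139 against 98.4, 107 and 87.9 (log2 0.31, SE 0.22, adjusted p = 0.562). Its EGFP-high replicate 1 was the lowest of all 6 arrays. Whether the difference of Elovl5 exceeds those of the other elongases was not tested.

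Scd1 makes monounsaturated fatty acids, and its 2 bright probe sets gave different calls. The brightest read 1129.1, 532.6 and 520.7 on EGFP-high arrays 1, 2 and 3 and 1447.3, 999.8 and 1030.4 on EGFP-negative arrays 1, 2 and 3. EGFP-high replicate 1 lay among the EGFP-negative arrays, and each EGFP-high array was below its same-number partner. Its log2 difference was -0.73 (SE 0.30, limma adjusted p = 0.244, and 0.0176 with the replicate block). Without EGFP-high replicate 1 it came to -1.09 (adjusted p = 0.0165), and without both arrays of number 1 to -0.92 (adjusted p = 0.0211). The second probe set read 282.7, 136.7 and 261.2 against 949.8, 578.2 and 552.3. Here the groups did not overlap, and Scd1 fell by 1.55 on the log2 scale (SE 0.29, limma adjusted p = 0.0162). That call was lost without EGFP-high replicate 3 (adjusted p = 0.0506). The remaining Scd1 probe set lay at the control level. The second set carries the suffix g, given to sets that can match several related sequences. Scd2, a close relative, read 144.1 to 221 in EGFP-high and 151.4 to 206.4 in EGFP-negative (log2 0.08, SE 0.20, adjusted p = 0.891), with a second probe set at 0.01.

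**Figure D2:**
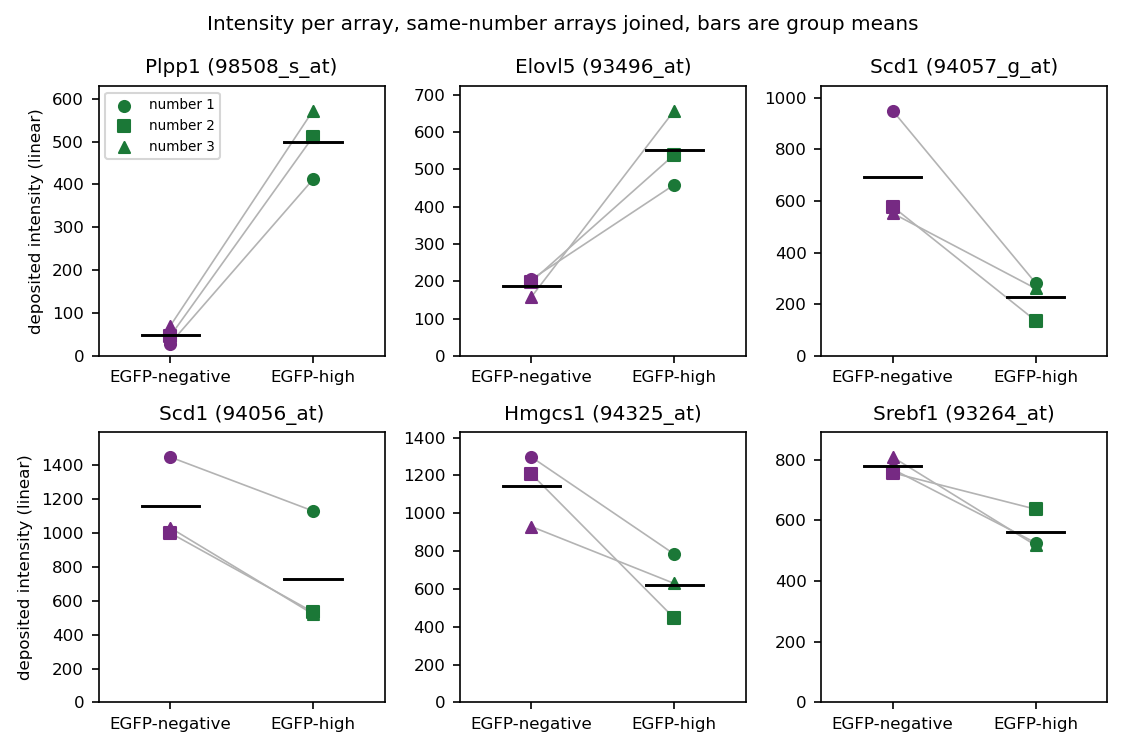
Deposited intensity (linear axis from 0) on each array for Plpp1, Elovl5, both bright probe sets of Scd1, Hmgcs1 and Srebf1; grey lines join arrays of the same number, marker shapes give the number and black bars are group means (n = 3). Plpp1 and Elovl5 are separated on every array, and on the brightest Scd1 probe set EGFP-high replicate 1, at 1129.1, lies among the EGFP-negative arrays.

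No sterol enzyme passed the threshold between the gates in the fit without the replicate block. Of 12 genes 11 were tested, with 0 higher and 0 lower by limma, and 0 higher and 1 lower at an unadjusted p under 0.05, beside 8.71% and 9.06% of all tested genes. Their median log2 difference was -0.11, and 7 of 11 were negative. The median came to -0.32 without EGFP-high replicate 1, over the 10 enzymes then tested. Leaving out EGFP-high replicate 2 gave -0.059, and leaving out EGFP-negative replicate 1 gave -0.054. Hmgcs1, the synthase that supplies HMG-CoA, had the largest difference. It read 783.8, 445.1 and 628.8 on EGFP-high arrays 1, 2 and 3 and 1297.2, 1207.7 and 929.7 on EGFP-negative arrays 1, 2 and 3. All EGFP-high arrays were below all EGFP-negative arrays, with means of 619 ± 169.6 against 1145 ± 192 (SD, n = 3 each). The log2 difference of -0.89 (SE 0.23) missed the threshold by limma (adjusted p = 0.061) and passed it with the replicate block (adjusted p = 0.0155). It also passed with arrays scaled to a common median (adjusted p = 0.0477) and without EGFP-high replicate 1 (log2 -1.07, adjusted p = 0.0247), and reached an adjusted p of 0.185 without EGFP-high replicate 2.

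The later steps showed small differences of both signs. Cyp51, the lanosterol demethylase, read 93.9, 98 and 97.1 in EGFP-high and 63.3, 68.5 and 88.2 in EGFP-negative. These groups did not overlap, but the difference did not pass (log2 0.33, SE 0.18, adjusted p = 0.427). Dhcr7, which makes cholesterol from its last precursor, read 95.7, 109.3 and 131.5 against 84.6, 117.3 and 55.1 (log2 0.36, SE 0.25). Sc5d, the step before it, read 75.3, 50 and 39.7 against 56.8, 47.1 and 122.2 (log2 -0.30, SE 0.32). For both, a single EGFP-negative replicate, number 3, lay apart, low for Dhcr7 and high for Sc5d. Nsdhl, a sterol dehydrogenase, read 268.3, 176.3 and 169.2 against 262.7, 212.8 and 220.2 (log2 -0.19, SE 0.20). Lss, the cyclase, read 65.4, 22.1 and 53.4 against 49.5, 47.2 and 49.1 (log2 -0.10, SE 0.29), and its value on EGFP-high replicate 2 was at the control level.
The isoprenoid and squalene steps overlapped between the gates throughout. Mvk, mevalonate kinase, read 301.8, 237.7 and 181.5 against 325.8, 304.2 and 260.8 and was lower in 3 of 3 pairs (log2 -0.31, SE 0.20). Idi1, the isopentenyl diphosphate isomerase, read 175.2, 101 and 149 against 158.5, 92.1 and 145.7 (log2 0.09, SE 0.25). Each pair of Idi1 was nearly level, while number 2 was the low array in both groups. Fdft1, squalene synthase, read 288.8, 211.5 and 195.7 against 299, 251.8 and 204.1 (log2 -0.11, SE 0.20). Fdps, farnesyl diphosphate synthase, had a log2 difference of -0.28 (SE 0.28) and Sqle, the squalene epoxidase, 0.09 (SE 0.35). For the 10 tested sterol enzymes other than Hmgcs1 the limma adjusted p was 0.427 or higher.

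Most sterol enzymes were higher on the arrays numbered 1. On the array numbered 1, 8 of 11 were at their highest in both groups, where 19.3% of all tested genes were. For Lss, 1 of the 8, the EGFP-negative arrays were nearly level at 49.5, 47.2 and 49.1. Sqle read 287.5, 128.5 and 163.4 in EGFP-high and 287.2, 151.7 and 110.6 in EGFP-negative. Number 1 was the high array in each group, and the values of the 2 number 1 arrays were nearly equal. Fdps read 447.2, 254.3 and 322.1 against 562.4, 429.6 and 278, and its second tested probe set 546.7, 218.4 and 179.4 against 640.1, 332.4 and 239.3. Both Fdps sets were again highest on number 1. The third Nsdhl probe set was highest on number 1 in neither group, at 105.4, 107.3 and 76.9 against 107.8, 103.8 and 109.2. For the 11 enzymes the median log2 excess of number 1 over the mean of the other arrays was 0.55 in EGFP-high and 0.26 in EGFP-negative, beside 0.023 and -0.00045 for all tested genes. The exceptions were Cyp51, Dhcr7 and Sc5d. Among the other 20 tested lipid genes, 5 were highest on number 1 in both groups, Me1 and Scd1 among them. Single genes rarely passed a test of the number: limma's F test of the number term called 0.817% of all tested genes, 0 of the 11 sterol enzymes (adjusted p = 0.0997 to 0.813) and 1 of the 31 lipid genes. That gene was Acsl4, lowest on number 1. The second Fdps probe set passed as well (adjusted p = 0.0276). This pattern was looked for after the values were seen.

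**Figure D3:**
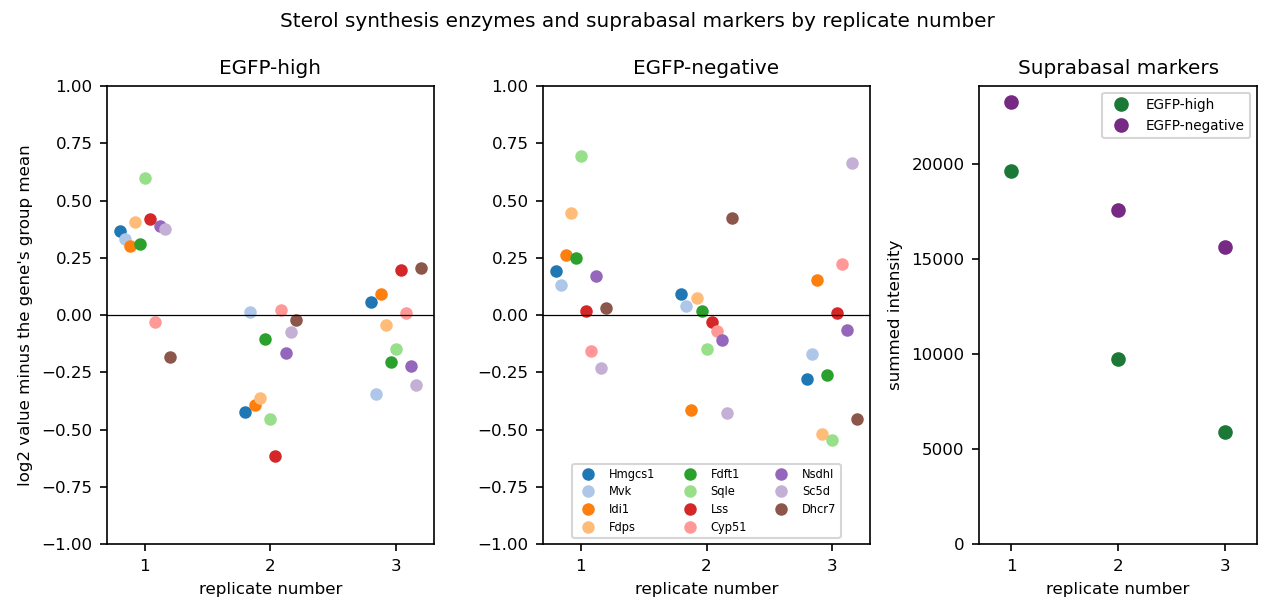
Left and middle, log2 value of each of the 11 tested sterol enzymes on each array minus that gene's mean in its group, by replicate number, with points offset sideways for legibility; right, summed intensity of 9 suprabasal keratinocyte markers on each array. The number 1 arrays are highest for 8 of 11 enzymes in both groups and for the marker sum, at 19599 in EGFP-high and 23225 in EGFP-negative.

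The summed level of suprabasal, differentiating keratinocyte markers was highest on the same arrays. The 9 markers on the array summed to 19599, 9727 and 5892 on EGFP-high arrays 1, 2 and 3, and to 23225, 17582 and 15609.5 on EGFP-negative arrays 1, 2 and 3. The sum was highest on number 1 in each group. Only EGFP-high arrays 2 and 3 were below all EGFP-negative arrays, as on the brightest Scd1 probe set. For Hmgcs1 and the second Scd1 probe set all 3 EGFP-high arrays were below them. Krt1, a keratin of the spinous layer, read 3468.1, 711.5 and 570.2 against 5336.9, 2939.1 and 1824.5. By single genes, 3 of the 7 tested markers were highest on number 1 in both groups, where 19.3% of all tested genes were. Of 7 tested markers 0 were higher and 0 lower by limma, beside 3.06% and 2.27% of all tested genes. All 7 differences were negative (-1.43 to -2.8e-05, the last in effect level), as were 2828 of all 5628 tested genes. At an unadjusted p under 0.05, 0 were higher and 1 lower, beside 8.71% and 9.06%. With the block 0 were higher and 1 lower, Krt1, beside 5.29% and 5.33%. The part of these cells in the sterol and Scd1 values was not tested. Without both arrays of number 1 the median of the 10 sterol enzymes then tested was -0.20.

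The regulator and the enzymes of fatty acid synthesis stayed short of the threshold. Srebf1 read 526, 636.6 and 517.6 in EGFP-high and 768.5, 756.4 and 808.3 in EGFP-negative. The groups did not overlap and all 3 pairs were lower, with means of 560.1 ± 66.4 against 778 ± 27.2 (log2 -0.47, SE 0.15, limma adjusted p = 0.135). Insig1 lay at the control level on all 6 arrays, at 2.7 to 10.5, and was not tested. Fasn, the fatty acid synthase, read 270.6, 269.2 and 286.4 against 370.3, 310 and 302.1, without overlap, at a log2 difference of -0.23 (SE 0.15, adjusted p = 0.52). Acly, which supplies cytosolic acetyl-CoA, read 621.7, 487.4 and 537.1 against 495.6, 418.8 and 469.7. It was higher in 3 of 3 pairs with overlapping groups (log2 0.24, SE 0.16, adjusted p = 0.523). Me1, malic enzyme and a source of NADPH, read 315.8, 150.2 and 97 against 353.9, 269.4 and 169.2. It was lower in every pair and highest on number 1 in both groups (log2 -0.54, SE 0.38, adjusted p = 0.551).

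Storage, transport and oxidation genes gave no call. Apoe, a lipoprotein of cholesterol transport, read 13177.9, 14864.8 and 12318.8 in EGFP-high and 13692.1, 11872.3 and 10513.7 in EGFP-negative (log2 0.17, SE 0.16, adjusted p = 0.678). Its groups overlapped. Apoc1, a small apolipoprotein encoded beside it, read 1093.8, 995 and 956.3 against 1735.7, 1146.4 and 1353.9. All EGFP-high arrays were below all EGFP-negative arrays (log2 -0.45, SE 0.18, limma adjusted p = 0.24, and 0.0654 with the block). Acsl4, which activates arachidonic acid, read 50.9, 143.2 and 200.1 against 79.1, 151 and 222.5. The number 1 arrays were lowest in both groups, and the gates differed little (log2 -0.23, SE 0.44, adjusted p = 0.851).
Plin2, a coat protein of lipid droplets, read 206.1, 227 and 266.4 against 243.1, 155.5 and 169.6 (log2 0.29, SE 0.20, adjusted p = 0.534). EGFP-negative replicate 1 lay among the EGFP-high arrays. Dgat1, which completes triglyceride synthesis, read 59.7, 54.8 and 84.9 against 73.4, 59.7 and 45.4 (log2 0.12, SE 0.23, adjusted p = 0.853). Of the oxidation genes, Cpt1a, the mitochondrial gate for fatty acids, read 467.7, 498 and 494.9 against 706.9, 621 and 602.8. Its groups did not overlap, with a difference of -0.39 (SE 0.15, limma adjusted p = 0.204). Acadl, a long-chain acyl-CoA dehydrogenase, read 69.5, 123.6 and 145 against 103.8, 136.2 and 187.2 (log2 -0.31, SE 0.28, adjusted p = 0.646). Acadm, its medium-chain relative, read 353.3, 295.1 and 407.5 against 502, 419.2 and 362.3 (log2 -0.27, SE 0.18, adjusted p = 0.539). All 3 oxidation genes were thus negative and none passed.

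**Figure D4:**
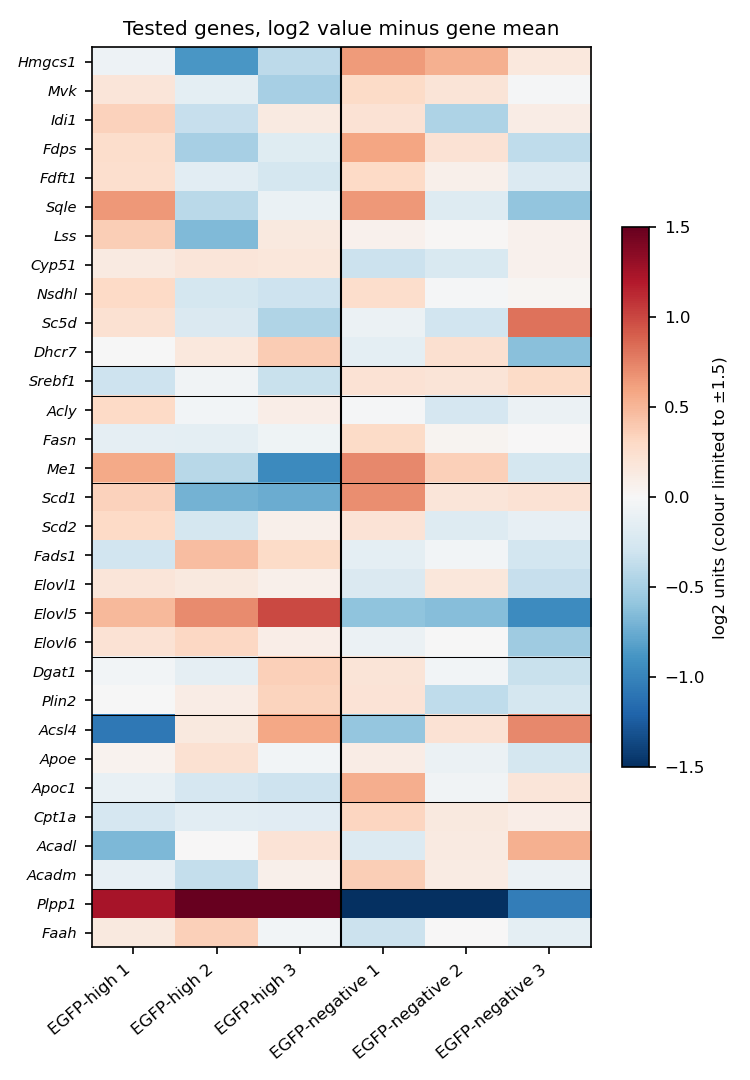
Log2 value of each of the 31 tested genes on each of the 6 arrays minus the gene's mean, with colour limited to 1.5 in either direction; horizontal lines divide roles and the vertical line divides the gates. Plpp1 and Elovl5 split by gate, while Sqle, Fdps, Me1 and Scd1 are high on both number 1 arrays and Acsl4 is low there.

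The other 6 genes on the array were too dim to test: Mvd, Insig1, Elovl3, Pparg, Cd36 and Lpl. Together with dim second probe sets of brighter genes, 17 of the 54 probe sets were not tested, with values of 0.6 to 54.8, and 12 of the 17 were at the control level on all 6 arrays. Pparg, the master regulator of sebocyte and adipocyte fat storage, read 3.8, 15.5 and 19.5 against 1.2, 4.2 and 1.4. Lpl, lipoprotein lipase, was above the control level on 1 array, EGFP-high replicate 3, at 34.4. Cd36, a fatty acid receptor, and Elovl3, an elongase of sebaceous and fur lipid, did not rise above the control level on any array. At levels this low no difference between the gates could be tested.

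Of 114 further genes of the same pathways, 73 were on the array and 51 were tested. By limma 1 was higher and 2 were lower, where 3.06% and 2.27% of all tested genes were. At an unadjusted p under 0.05, 6 of the 51 were higher and 6 lower, beside 8.71% and 9.06% of all tested genes. Their median log2 difference was -0.036. Acot1, an acyl-CoA thioesterase, rose: it read 261.6, 339.8 and 413.7 in EGFP-high and 143.5, 143.2 and 165 in EGFP-negative, without overlap (log2 1.05, SE 0.19, adjusted p = 0.0131). Npc1, which exports cholesterol from lysosomes, read 337.7, 284.3 and 289.7 against 547.6, 521.6 and 444.7. It fell by 0.70 on the log2 scale (SE 0.16, limma adjusted p = 0.039). Mgll, monoacylglycerol lipase, read 126.8, 100.1 and 92.5 against 161.4, 240.7 and 220.5. It fell by 0.84 (SE 0.20, limma adjusted p = 0.044).
Leaving out single arrays ended all 3 calls. That of Acot1 was lost without EGFP-high replicate 2 (adjusted p = 0.0548), EGFP-high replicate 3 (0.0615) or EGFP-negative replicate 2 (0.0505). Those of Npc1 and Mgll were lost without EGFP-high replicate 2 or 3 or EGFP-negative replicate 2 or 3, and that of Npc1 also without EGFP-negative replicate 1 (adjusted p up to 0.151 for Npc1 and 0.165 for Mgll, each highest without EGFP-high replicate 3). With the replicate block 2 of the 51 were higher and 4 lower, where 5.29% and 5.33% of all tested genes were. The block added Abca1, a cholesterol exporter, on its brightest probe set (log2 0.67, limma adjusted p = 0.0483). A second tested Abca1 probe set overlapped between groups (log2 0.13, limma adjusted p = 0.688 with the block). Also added were Cebpa, a factor of fat and sebaceous differentiation (-0.68, adjusted p = 0.0157), and Ppara, a regulator of fatty acid oxidation (-0.74, adjusted p = 0.0331). Of the 6 other sterol synthesis genes tested, 0 were higher and 0 lower, with 1 in each direction at an unadjusted p under 0.05 and a median of 0.0051.

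Markers of lipid-rich and other cells were read beside these genes. Of 13 sebaceous gland markers 5 were on the array and summed to 477 to 799 in EGFP-high and 279.7 to 314 in EGFP-negative. Of 3 tested 1 was higher by limma, Mgst1, a glutathione transferase (185.1, 322 and 430.9 against 57.4, 49.4 and 91.3). None was lower, beside 3.06% higher and 2.27% lower among all tested genes. At an unadjusted p under 0.05, 2 were higher and 0 lower, beside 8.71% and 9.06%. The other of these 2, Muc1, overlapped between the groups. Its EGFP-negative values were all below the filter level of 44.5, so it was tested only through EGFP-high replicates 2 and 3. Without Mgst1 the sums were 292 to 477 against 222 to 245. Prdm1, a factor of sebocyte and epidermal differentiation that was too dim to test, went the other way without overlap, at 18.1, 34.7 and 31 against 42.3, 40.1 and 43.1. Within EGFP-high the sum of all 5 was lowest on replicate 1, as Elovl5 and Plpp1 were. Over all tested probe sets that array also lay closest to EGFP-negative on component 1 (10.1 against 29.5 and 24.3). The members of the sum differed. Mgst1, Prdm1 and Muc1 (35.5, 146.7 and 102.7) were lowest on replicate 1. Mc5r was lowest on replicate 3 (164.1, 228.9 and 115.1), and Cidea was highest on replicate 1 (74.5, 67 and 62.9). Of 10 adipocyte markers 8 were on the array and summed to 628 to 739.5 against 380 to 435. Without Lep these sums overlapped, at 84.4 to 199 against 101 to 137. Most of the level was Lep, the leptin gene, higher in EGFP-high (429.2 to 568.1 against 248.9 to 334.5, limma adjusted p = 0.0382, and up to 0.153 without single arrays). A second Lep probe set, too dim to test, did not follow, at 29.7, 32 and 29.6 against 31.9, 28.7 and 27.1. Fabp4, Retn and Cidec were at the control level on all 6 arrays. The 10 fibroblast markers summed to 2041 to 2279.9 against 1456 to 1795, and 7 of 8 listed melanocyte markers to 614 to 711 against 453 to 498. The fibroblast sum rested on Fbln1, a matrix protein, and without it overlapped at 1207 to 1562 against 1175 to 1399.9. Col1a2, a collagen chain, overlapped on its brightest probe set. A dimmer one read 76.7, 237.2 and 171.7 against 15.3, 12.5 and 15.1. All 3 EGFP-negative values were under the control level. That set passed the filter only through its EGFP-high arrays, so no rise is read from its limma call. Without Mitf, the melanocyte regulator, the melanocyte list still gave 501 to 555 against 411 to 444.5. T cell markers summed to 450 to 738 against 377 to 427. Of 2 tested 1 was higher by limma, Cd7, and 1 lower, Thy1, beside 3.06% and 2.27% of all tested genes. Cd7 read 266.6, 246.5 and 353.2 against 133.2, 95.4 and 144. Thy1 read 18.4, 59.4 and 85.1 against 164.1, 207.1 and 154.6. Neither gene overlapped between the groups. Without Cd7 the T cell sums overlapped, at 184 to 385 against 266 to 293.5. The sums of the Langerhans cell and macrophage, endothelial, erythrocyte and muscle lists overlapped between the groups. The part of these cell types in the rise of Elovl5 and Plpp1 was not tested.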

How the data were processed

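Gene expression was measured on 6 Affymetrix mouse arrays, 3 of EGFP-high and 3 of EGFP-negative α6 integrin positive keratinocytes. The authors deposited 1 intensity per probe set on a linear scale. The mean trimmed by 2% at both ends was 150.1 on every array, as after scaling to 1 target. The software is not given in the sources used here. The number of arrays limits the precision.

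Of 12488 rows, 66 control rows were left out. By the platform annotation 10833 of the rest named 1 gene, 396 more than 1 and 1193 none. Symbols were checked through Entrez identifiers in RefSeq (GRCm38.p6), which matched 10817 and changed 0. To each value 19.3, the 25th percentile of the positive intensities, was added before log2. Probe sets with a mean above the 40th percentile, near an intensity of 44.5, were tested with limma 3.58.1 in R 4.3.3 (lmFit, eBayes with an intensity trend, two-sided, Benjamini-Hochberg, threshold 0.05), without the replicate number as a term. The fit was tested on simulated data. A gene was represented by its brightest tested probe set. Members past the threshold, and the largest difference in each role, were to be given with all 6 values; those of the others were added after they were seen. Of the further pathway genes, those past the threshold were named.

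After subtracting each group's mean, arrays of the same number correlated at 0.336, 0.368 and 0.305 across the 2 groups. The labels do not state that same-number samples are pairs, so the fit behind the calls left the number out. The fit with the number as a block was run as an alternative, and same-number pairs here follow the titles. Values with the replicate block are printed where they change a call or a count. The members and lists were chosen with earlier results of these data known. Alternatives covered the block, the offset, a floor of 20, the filter, normalization, the trend, single arrays and the mean of a gene's probe sets.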

Additional observations from a re-analysis of the deposited data

How the results depend on the processing

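The calls of Plpp1 and Elovl5 held under all 17 alternatives, and 2 lipid genes were higher under each. The number lower, 0 of 31, came to 2 with the replicate block, and to 1 with a common median, with the mean of a gene's probe sets, or without both arrays of number 1. It ranged from 0 to 2 when single arrays were left out. The count of other lipid pathway genes called, 3, came to 6 with the replicate block, 2 with no filter on dim probe sets, 1 without the intensity trend and 2 without both arrays of number 1, and from 0 to 6 without single arrays. All probe sets called, 387, came to 778 with the replicate block and from 191 (without EGFP-high replicate 3) to 499 (without EGFP-high replicate 1). The causes of these shifts were not tested. The mean of its probe sets gave Scd1 a log2 difference of -1.14 (limma adjusted p = 0.0463).

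Signs turned for 8 uncalled genes when single arrays were left out. The log2 ranges were -0.58 to 0.24 for Acsl4, -0.027 to 0.25 for Dgat1, -0.27 to 0.012 for Fdft1, -0.12 to 0.29 for Idi1, -0.20 to 0.21 for Lss, -0.51 to 0.036 for Sc5d, -0.053 to 0.23 for Scd2 and -0.21 to 0.44 for Sqle. Dim genes near the control level could not be tested, so their differences are unknown. The replicate block changed no other call among the lipid genes.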

Other observations

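Cidea, which fuses lipid droplets in fat and sebaceous cells, was too dim to be tested, and it is named here after its values were seen. It read 74.5, 67 and 62.9 on EGFP-high arrays 1, 2 and 3 and 34.6, 27.8 and 17.3 on EGFP-negative arrays 1, 2 and 3. All 3 EGFP-high arrays were above the control level and all 3 EGFP-negative arrays were below it. The groups did not overlap, with means of 68.1 ± 5.88 and 26.6 ± 8.72 (SD, n = 3 each), and every pair was higher in EGFP-high. The gene belongs both to the further storage genes and to the sebaceous markers counted above.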
